A study of Caenorhabditis elegans with 6 samples.

Results

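The *ttr* genes of *Caenorhabditis elegans* encode the transthyretin-related family, a set of small proteins found in nematodes. The members were taken as all rows of the count table whose gene symbol starts with *ttr-*, leaving out 1 gene of that prefix that is not analysed here. The family was chosen with earlier results of these data known, but the rule itself used no measured value. It gave 57 genes of the 46756 in the table. They were measured in mRNA of whole worms with a high number of exophers (more than 20 per animal, 3 libraries) and of worms with a low number (fewer than 2 per animal, 3 libraries). Exophers are large vesicles that cells push out with organelles and protein inside, and here they were those released by body wall muscle. All worms were hermaphrodites of the strain ACH93 on adulthood day 2, kept on *Escherichia coli* OP50. The strain carries the proteasome marker RPN-5::wrmScarlet and a GFP on the mitochondrial outer membrane, both expressed in body wall muscle from the *myo-3* promoter, in an otherwise wild-type N2 background. No mutant and no treatment distinguished the groups, which were sorted from age-matched animals by their exopher number. The sources used here do not give the number of worms in a library, and p-values measure only the spread between these libraries.

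Transthyretin-like proteins of nematodes typically carry a signal peptide and a fold related to that of vertebrate transthyretin, the blood carrier of thyroid hormone and, with retinol-binding protein, of retinol. The nematode family is distinct from that carrier, has many more members, and is abundant in the material that parasitic nematodes secrete. For most *C. elegans* members no function is known. Of those with a role known from mutants, TTR-33 protects dopaminergic neurons from oxidative damage, and TTR-11 binds phosphatidylserine, a lipid exposed on damaged membranes, and acts in the regrowth of cut axons.

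All 57 members were annotated as protein coding. Their coding regions spanned 89 to 406 codons, with a median of 143, and 52 of the 57 had at most 170. They lay on every chromosome (WBcel235), with 22 on V, 12 on X, 10 on IV, 8 on III, 3 on I and 2 on II. Neighbours no more than 5000 bases apart formed 12 clusters that held 29 of the members. Exon bases overlapped an antisense gene for 13 members and a gene on the same strand for 4, and the sources used here do not say whether reads were counted by strand.

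The 6 libraries had total counts of 65814796 to 70280441 in high exopher worms and 60511481 to 72909583 in low exopher worms. Of the members, 47 had enough counts to be tested, among 15883 genes tested in all, and 9 of the other 10 had at least 1 count in some library. Levels are given as CPM, the counts of a gene per 1000000 counts of the scaled library total, which compare libraries for 1 gene. For levels between genes they were divided by the length of the exons, as CPM per kilobase. Summed over the family, the level was 2104, 1640 and 1637 CPM in the 3 high exopher libraries and 2113, 1694 and 1807 CPM in the 3 low exopher libraries. The groups overlapped, and in both of them replicate 1 held the largest sum.

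A few members made up most of this RNA. The levels per length covered a wide range, and the 8 members of highest level held 69.9% of the summed family level in CPM per kilobase. The order, as the mean of the 6 libraries, began with *ttr-51* at 583 CPM per kilobase, *ttr-16* at 336, *ttr-2* at 295 and *ttr-45* at 233. It went on with *ttr-15* at 221, *ttr-50* at 197, *ttr-46* at 182 and *ttr-6* at 166 CPM per kilobase. A mean of 10 CPM per kilobase was reached by 27 members and one of 1 by 45. The median of the 47 tested members was 16.4 CPM per kilobase, against 5.95 over the 15831 genes tested that had a length, and 10 members (21.3% of those tested) were above 88.3 CPM per kilobase, the lower bound of the highest 10% of these genes.

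**Figure D1:**
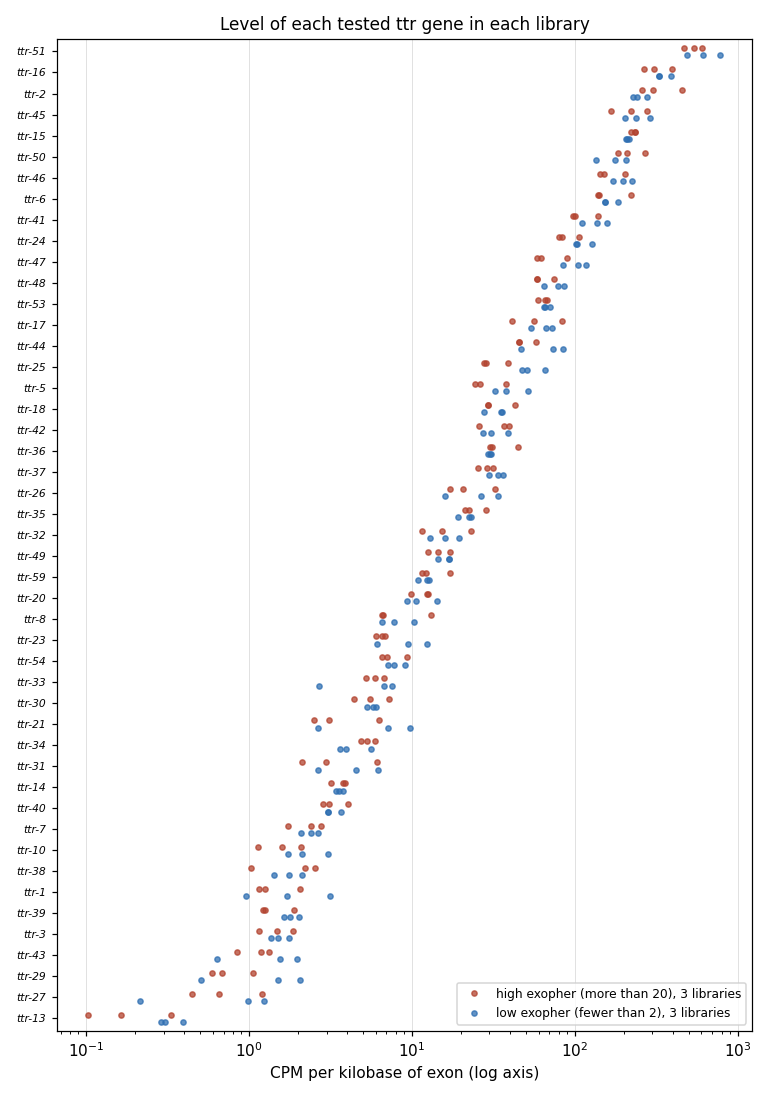
Level of each of the 47 tested *ttr* genes, ordered by mean level from the top, in CPM per kilobase of exon (log axis); each point is 1 library, with the 3 high exopher libraries in red above the 3 low exopher libraries in blue. *ttr-51* stands at the top with a mean of 583 CPM per kilobase, and the points of both colours overlap for all members but *ttr-25* and *ttr-15*.

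The highest member, *ttr-51* (chromosome IV, 13250655 to 13252311), had 291, 224 and 261 CPM in high exopher libraries, against 378, 234 and 296 CPM in low exopher libraries. The groups overlapped, and the log2 fold change was -0.23 (SE 0.174), with an adjusted p of 0.637 in edgeR's quasi-likelihood test. Its neighbour *ttr-45* had 190, 113 and 150 CPM in high and 197, 139 and 162 CPM in low exopher libraries. Replicate 1 was the highest library of both groups, and the log2 fold change was -0.14 (SE 0.196, adjusted p = 0.831). *ttr-16* had 203, 157 and 137 CPM in high exopher libraries, against 199, 170 and 169 CPM in low exopher libraries. An antisense gene overlaps 209 of its exon bases, and the effect of this overlap on its counts was not tested. *ttr-46* had 136, 100 and 94.7 CPM in high and 149, 115 and 132 CPM in low exopher libraries. *ttr-6* had 127, 81.5 and 80.3 CPM in high and 105, 88.8 and 88.1 CPM in low exopher libraries. The libraries of both groups were mixed in order for all 3 genes, with log2 fold changes of -0.11 (SE 0.145) for *ttr-16*, -0.26 (SE 0.152) for *ttr-46* and 0.03 (SE 0.180) for *ttr-6*. In the order of levels per length, every library of *ttr-51* lay above every library of *ttr-16*, whereas each of the next 7 members overlapped the one after it in the range of its libraries.

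Between high and low exopher worms no member was called. When a call needed an adjusted p under 0.05 together with a log2 fold change of more than 1 in size, edgeR called 0 of the 47 members, against 5.74% of all genes tested. DESeq2 and limma-voom also called 0 at these thresholds. At an unadjusted p under 0.05 there were 3 members without the replicate block, all of them lower in high exopher worms, where 17.05% of all genes reached that level. In a fit with the replicate number as a block there were 13, 10 lower and 3 higher, where 24.6% of all genes reached it. The log2 fold changes ran from -0.81 to 0.45, and 40 of the 47 were smaller than 0.5 in size. Their median was -0.10, beside -0.01 over all genes tested, and their median size was 0.18, beside 0.17. There were 30 members with a negative and 17 with a positive log2 fold change. The 95% interval was taken from the fit without the replicate block. It lay within 1 log2 unit of no change for 37 of the 47 members, beside 63.03% of all genes tested. For these 37 a doubling or a halving was outside the interval. For the other 10 it reached that far, and the highest mean level among these was 25.04 CPM, that of *ttr-25*.

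**Figure D2:**
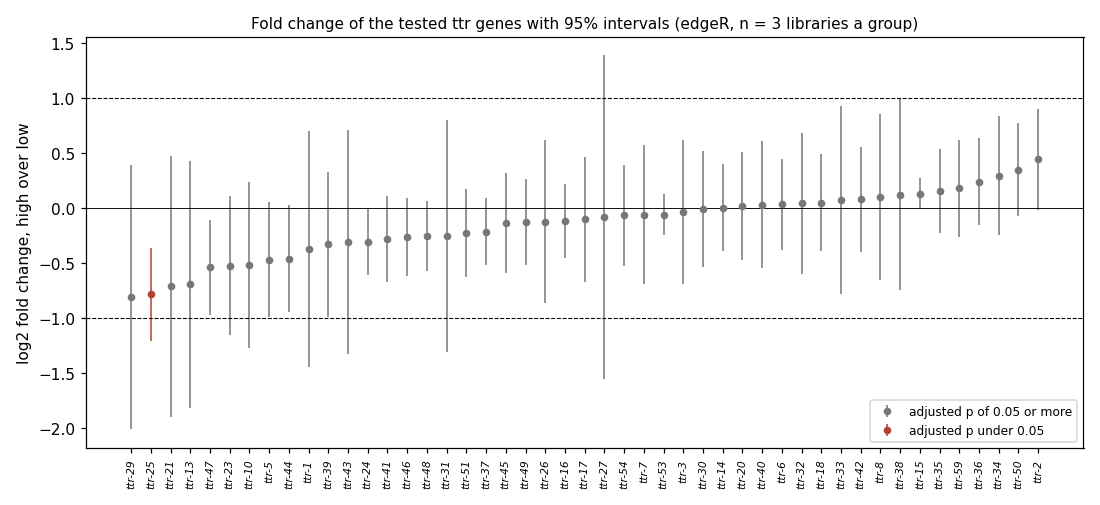
Log2 fold change of high over low exopher worms (points) with 95% intervals (bars) for the 47 tested *ttr* genes, ordered by value, with dashed lines at -1 and 1 and the 1 gene with an adjusted p under 0.05, *ttr-25*, in red. All points lie between -0.81 and 0.45, and 30 of the 47 lie below 0.

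The member with the smallest p was *ttr-25* (WBGene00013078, chromosome V, 18556714 to 18558099, plus strand). It had 22.6, 16.6 and 15.999 CPM in high exopher libraries, against 38.1, 27.4 and 29.6 CPM in low exopher libraries. Every high exopher library lay below every low exopher library, and the means were 18.4 ± 3.68 and 31.7 ± 5.66 CPM (SD, n = 3 each). Its log2 fold change was -0.78 (SE 0.181, 95% interval -1.20 to -0.36), with an adjusted p of 0.0444 in edgeR. It was 0.0006 in DESeq2, 0.0511 in limma-voom, 0.0555 with upper quartile scaling and 0.0598 with a stricter filter on low counts. In the main test this passed the threshold on p but not that on the fold. On the adjusted p alone, *ttr-25* was the 1 of 47 members that was lower, where 3.1% of all genes were, and 0 members were higher, where 3.41% of all genes were. edgeR's adjusted p was 0.055 to 0.138 when any 1 library other than low exopher replicate 2 was left out, and 0.0264 without that library. In a whole worm, fewer cells that express a gene and less RNA per cell cannot be told apart.

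*ttr-25* is the middle gene of 3 that lie in a row on chromosome V, with gaps of 70 and 658 bases. Its neighbour *ttr-24* (18555387 to 18556643, minus strand) had 62.4, 49.2 and 47.4 CPM in high and 75.1, 60.5 and 61.1 CPM in low exopher libraries. The highest high exopher library lay above 2 of the low exopher libraries, and the log2 fold change was -0.31 (SE 0.131, adjusted p = 0.282). For *ttr-26*, on the other side, the log2 fold change was -0.12, the smallest in size of the 3. The levels per length also differed along the row, at 100.48, 43.4 and 24.4 CPM per kilobase for *ttr-24*, *ttr-25* and *ttr-26*.

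Same-numbered libraries of the 2 groups deviated together across all genes. A fit with the replicate number as a block brought the adjusted p of 4 more members under 0.05, but no member was called. With the replicate block, edgeR's adjusted p was under 0.05 for 4 members that were lower in high exopher worms, where 5.86% of all genes were lower. These were *ttr-25* at 0.00265, *ttr-47* at 0.00831, *ttr-24* at 0.0166 and *ttr-5* at 0.0256. It was under 0.05 for 1 member that was higher, *ttr-50* at 0.00921, where 6.52% of all genes were higher. None of the 5 reached a log2 fold change of 1 in size.

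*ttr-47* (WBGene00019203, chromosome V, 8923088 to 8923896, plus strand) had 45.9, 29.8 and 31.5 CPM in high exopher libraries, against 59.4, 43.1 and 53.4 CPM in low exopher libraries. Only high exopher replicate 1 lay above a low exopher library, and within each replicate number the high exopher library was the lower one, by log2 ratios of -0.37, -0.53 and -0.76. Without the block its log2 fold change was -0.54 (SE 0.185, adjusted p = 0.165). *ttr-5* (WBGene00008040, chromosome III, 9330316 to 9330928, plus strand) had 17.9, 11.6 and 12.4 CPM in high and 24.4, 15.5 and 18.1 CPM in low exopher libraries. Replicate 1 was again the highest of each group, and the log2 ratios within the numbers were -0.45, -0.42 and -0.54. Without the block the log2 fold change was -0.47 (SE 0.226, adjusted p = 0.367).

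The other members among the 6 of smallest p with a negative sign did not pass the test in either fit. *ttr-44* had 30.5, 30.4 and 38.6 CPM in high and 48.8, 31.5 and 56.5 CPM in low exopher libraries. Low exopher replicate 2 lay within the range of the high exopher libraries, and the adjusted p, 0.326 over all libraries, was 0.0306 in edgeR without it. An antisense gene overlaps 167 exon bases of *ttr-44*. *ttr-23* had 3.62, 3.76 and 3.30 CPM in high and 6.83, 3.33 and 5.16 CPM in low exopher libraries. It too was lowest, within the low exopher group, in replicate 2, and its log2 fold change was -0.52 (SE 0.272, adjusted p = 0.416).

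Among the members with a positive sign, *ttr-2* (WBGene00010539, chromosome III, 9927769 to 9929004) had the highest log2 fold change. It had 227, 128 and 150 CPM in high exopher libraries, against 138, 120 and 113 CPM in low exopher libraries. High exopher replicate 1 stood well above the rest, high exopher replicate 2 lay inside the range of the low exopher group, and the log2 fold change was 0.45 (SE 0.198, adjusted p = 0.31). *ttr-50* (WBGene00010234, chromosome IV, 11640047 to 11641015, minus strand) had 191, 246 and 168 CPM in high and 161, 190 and 124 CPM in low exopher libraries. Its highest library was replicate 2 in both groups, and within each number the high exopher library was the higher, by log2 ratios of 0.25, 0.37 and 0.44. Without the block the groups overlapped and the log2 fold change was 0.35 (SE 0.182, adjusted p = 0.417).

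**Figure D3:**
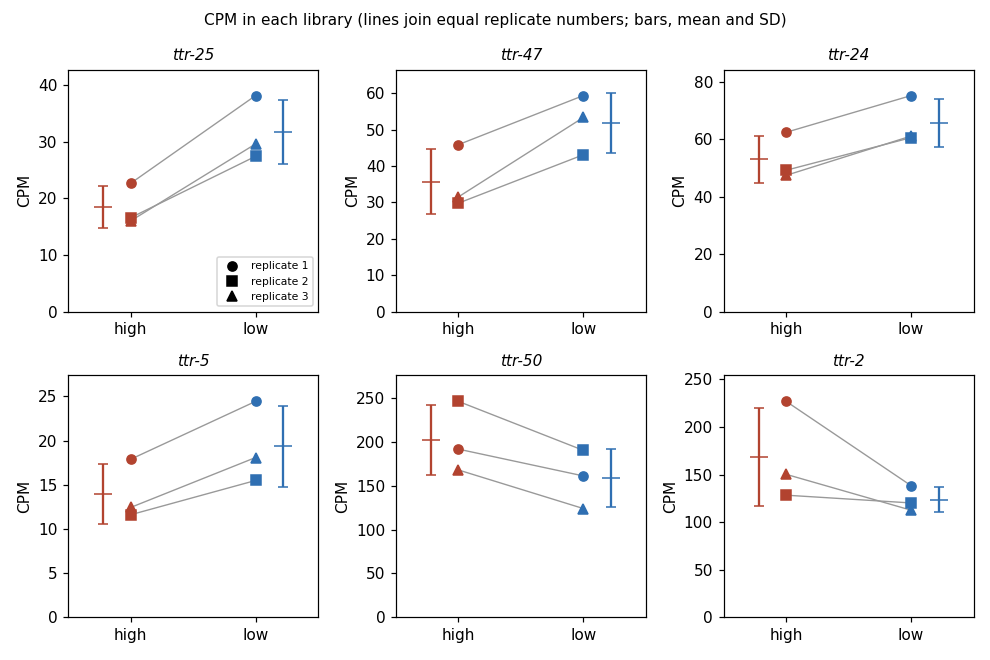
CPM in each library for *ttr-25*, *ttr-47*, *ttr-24*, *ttr-5*, *ttr-50* and *ttr-2*, with high exopher worms at the left of each panel and low exopher worms at the right, lines joining equal replicate numbers, and the mean with its SD (n = 3) beside the points. The high exopher library is the lower of each pair for *ttr-25*, *ttr-47*, *ttr-24* and *ttr-5* and the higher of each pair for *ttr-50* and *ttr-2*.

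*ttr-15* (WBGene00011561, chromosome III, 10337847 to 10339440) had 144, 134 and 144 CPM in high and 131, 126 and 127 CPM in low exopher libraries. The groups did not overlap, at means of 140.5 ± 5.41 and 128 ± 2.46 CPM (SD, n = 3 each), but the log2 fold change was 0.13 (SE 0.0601, 95% interval -0.01 to 0.27) and the adjusted p 0.322. Together with *ttr-25* it made 2 of 47 members (4.26%) without overlap between the groups, where 21.7% of all genes had none. *ttr-36*, *ttr-34* and *ttr-35* completed the 6 of smallest p with a positive sign. *ttr-36* had 20.9, 14.2 and 14.7 CPM in high and 14.3, 13.7 and 14.1 CPM in low exopher libraries, so that the difference sat mostly in 1 high exopher library. Its neighbour *ttr-35*, 89 bases away on chromosome X, had 15.6, 12.2 and 11.6 CPM in high and 10.5, 12.6 and 12.2 CPM in low exopher libraries. *ttr-34* had 3.85, 3.16 and 3.46 CPM in high and 3.61, 2.56 and 2.35 CPM in low exopher libraries. For all 3 the groups overlapped, with log2 fold changes of 0.24 (SE 0.172), 0.16 (SE 0.165) and 0.30 (SE 0.233) for *ttr-36*, *ttr-35* and *ttr-34*.

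Of the members with roles known from mutants, *ttr-33*, the protector of dopaminergic neurons, was detected at 5.82 CPM per kilobase. The median was 16.4 over the tested members and 5.95 over the genes tested that had a length. *ttr-33* had 3.48, 3.97 and 3.07 CPM in high exopher libraries, against 3.95, 1.58 and 4.48 CPM in low exopher libraries. The high exopher libraries lay within the range of the low exopher ones, and the log2 fold change of 0.07 had a 95% interval of -0.78 to 0.93. A same-strand gene overlaps 42 exon bases of *ttr-33*. *ttr-11*, the phosphatidylserine binder, was near the limit of detection, with 0, 0 and 3 counts in high and 5, 5 and 3 counts in low exopher libraries, and was not tested. Of 12 genes of phosphatidylserine exposure, recognition and engulfment, among them the lipid translocase gene *tat-1*, the receptor genes *psr-1* and *ced-1* and the signalling genes *ced-2*, *ced-5* and *ced-12*, all 12 were tested and 0 were called in either direction. Their median log2 fold change was -0.06, beside -0.01 over all genes, and 10 of the 12 were negative. Over all genes tested 5.74% were called, so 0 of 12 lies near that share. At an unadjusted p under 0.05 there was 1 of the 12, where 17.05% of all genes reached that level. It was *nrf-5*, which encodes a secreted lipid-binding protein, at a log2 fold change of -0.26 (adjusted p = 0.149 in edgeR).

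The members that varied most within a group were of low level. *ttr-13* had 21, 6 and 10 counts in high and 18, 17 and 20 counts in low exopher libraries, and *ttr-31* had 1.18, 1.65 and 3.43 CPM in high and 2.53, 1.47 and 3.46 CPM in low exopher libraries. In CPM, high exopher replicates 2 and 3 lay below every low exopher library for *ttr-13*, whereas both groups covered much of the same range for *ttr-31*. The adjusted p was 0.597 for *ttr-13* and 0.874 for *ttr-31*. A same-strand gene overlaps 91 exon bases of *ttr-13*, and the effect on its counts was not tested. The most variable members within the low exopher group were *ttr-27* and *ttr-29*, the outer genes of a row of 3 on chromosome V. *ttr-27* had 44, 15 and 23 counts in high and 45, 7 and 29 counts in low exopher libraries. *ttr-29* had 47, 24 and 29 counts in high and 91, 20 and 54 counts in low exopher libraries. Both were highest in replicate 1 and lowest in replicate 2 of each group. Of the 12 gene lists, pharynx, neurons and sperm were also highest in replicate 1 of both groups, and were lowest in replicate 3 of the high and replicate 2 of the low exopher group. The 11 pharynx genes summed to 92.2, 68.9 and 55.1 CPM in high and 81.0, 35.2 and 77.2 CPM in low exopher libraries, and the 12 neuron genes to 318, 302 and 296 CPM in high and 356, 309 and 325 CPM in low exopher libraries. No pharynx or neuron marker was at 0 in all 6 libraries. Their part in the levels of these *ttr* genes was not tested.

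The other 10 members did not pass the filter on low counts. The one with the most counts was *ttr-12* (WBGene00009759, chromosome V, 20607777 to 20608788), which was chosen for description after its values were seen. It had 1, 0 and 4 counts in high exopher libraries, against 58, 3 and 16 counts in low exopher libraries. The groups overlapped, since low exopher replicate 2 lay below high exopher replicate 3, and most of its counts came from 1 low exopher library. Without a filter its log2 fold change was -3.88 (SE 1.15), with an adjusted p of 0.103 in edgeR. *ttr-9* leaned the same way, with 2, 3 and 0 counts in high and 18, 6 and 2 counts in low exopher libraries, and an adjusted p of 0.273 without a filter. Sperm genes were also lower in high exopher worms: of 22 tested members of a list of 27, 8 were called lower and 0 higher, with a median log2 fold change of -1.58. The list summed to 55.3, 48.2 and 46.3 CPM in high and 126, 71.6 and 75.1 CPM in low exopher libraries, highest in low exopher replicate 1 as *ttr-12* was. One sperm marker, *ssp-19*, was at 0 in every high exopher library and none was at 0 in all 6 libraries. The part of sperm in the *ttr-12* and *ttr-9* counts was not tested.

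The rest of the untested members had few counts in any library. *ttr-58* had counts in 1 library only, 6 in low exopher replicate 1, and *ttr-19* had none. Against the 404566486 counts of the 6 libraries together, a count of 0 allows a level of up to 0.0074 CPM, counting error only. *ttr-28*, *ttr-22*, *ttr-55*, *ttr-56* and *ttr-57* had between 0 and 12 counts in high and between 0 and 10 counts in low exopher libraries. At this depth no difference was detectable for these genes.

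Many members shared a pattern over the replicate numbers. In 26 of the 47 tested members (55.3%), replicate 1 was the highest library in both groups, where this held for 22.1% of all genes. It was the lowest library of both groups for 0 members and for 2242 of the 15883 genes. The level of replicate 1 over the mean of the other 2 had a median log2 ratio over the members of 0.47 in high and 0.25 in low exopher libraries, beside 0.05 and 0.02 over all genes. The calls over all genes, 469 higher and 442 lower, were fewer without any 1 of the high exopher libraries. They were 5 higher and 0 lower without replicate 1, 217 and 144 without replicate 2, and 47 and 17 without replicate 3. Without 1 low exopher library they were 190 to 465 higher and 343 to 663 lower. The median log2 fold change of the members was -0.28 without high exopher replicate 1. The labels number the libraries as biological replicates but do not say whether equal numbers share a culture or a day. The part of the replicate number in these levels was not tested.

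Within the replicate numbers, the median of the family was clearly negative only in replicate 3. High exopher replicate 3 was below low exopher replicate 3 for 40 of the 47 members, with a median log2 ratio of -0.38, beside -0.01 over all genes. In replicate 1 this held for 23 members, with a median log2 ratio of 0.02, and in replicate 2 for 25, with a median of -0.03. The high exopher library was the lower one in all 3 numbers for 12 members (25.5%, beside 22.5% of all genes) and the higher one in all 3 for 5 members (10.6%, beside 20.9%). Without high exopher replicate 3 the median log2 fold change of the members was -0.02, and without low exopher replicate 3 it was -0.09, near the -0.10 of all libraries. It was -0.05 without high exopher replicate 2, -0.05 without low exopher replicate 1 and -0.21 without low exopher replicate 2.

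**Figure D4:**
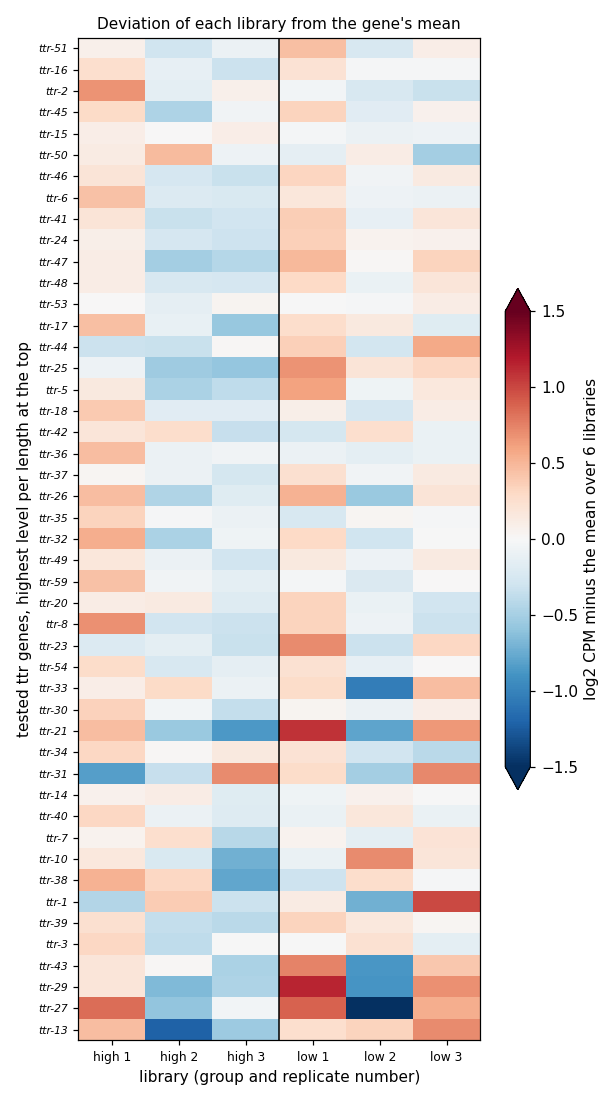
Heat map of the 47 tested *ttr* genes (one row each, highest level per length at the top) in the 6 libraries, high exopher replicates at the left and low exopher replicates at the right; colour is the log2 CPM minus the gene's mean over the 6 libraries, red above it and blue below. Replicate 1 is mostly red in both groups and was the highest library of both for 26 of the 47 genes.

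By chromosome, the median log2 fold change was -0.38 over the 16 tested members on V, -0.10 over 9 on IV, 0.01 over 8 on III, -0.11 over 2 on II and 0.06 over 12 on X. The 3 members on I were not tested. These medians are descriptions, as members that lie side by side are not independent.

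Several tissue and stage lists moved between the same libraries. Of 23 tested molting and larval cuticle genes, 11 were called higher in high exopher worms and 0 lower, with summed levels of 1610 to 1904 CPM in high and 606 to 1099 CPM in low exopher libraries. Among the smaller lists, 4 of 11 pharynx genes, 2 of 6 glia genes and 1 of 3 coelomocyte genes were called higher and 0 lower. The median log2 fold changes were 1.15, 0.56 and 0.80 in that order, and 3, 2 and 0 of the genes had a negative sign. The pharynx sums overlapped, at 55.1 to 92.2 CPM in high and 35.2 to 81.0 CPM in low exopher libraries. Over all genes tested, 5.74% were called in either direction. Of the intestine (10 tested), yolk (6), body wall muscle (11), adult hypodermis (3), neuron (12) and embryo (11) lists, 0 genes were called. Their median log2 fold changes were -0.27 for intestine, -0.45 for yolk, -0.32 for body wall muscle, -0.29 for adult hypodermis, -0.02 for neurons and -0.03 for embryo. The intestine list summed to 1408 to 1834 CPM in high and 1775 to 2377 CPM in low exopher libraries, and the yolk list to 53262 to 69587 CPM in high and 75786 to 96012 CPM in low exopher libraries. Body wall muscle genes were present in every library, at 2162 to 2656 CPM in high and 2768.5 to 3143.5 CPM in low exopher libraries. On edgeR's adjusted p alone, *myo-3* was higher, at a log2 fold change of 0.70 (adjusted p = 0.0234). *tnt-2* and *unc-15* were lower, at -0.63 (adjusted p = 0.0151) and -0.58 (adjusted p = 0.0458). None of these lists had a marker at 0 in all 6 libraries, and their part in the *ttr* values was not tested.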

How the data were processed

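The authors deposited raw counts of reads per gene, made from poly(A)-selected RNA: reads were trimmed with Trimmomatic 0.36, aligned with STAR 2.5.2b to an Ensembl genome and counted in exons with featureCounts (Subread 1.5.2), unique alignments only. Which release was used is not stated in these sources. A second deposited table of normalized values was not used.

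The main test was the robust quasi-likelihood F test of edgeR 4.0.16 (R 4.3.3) for high against low exopher libraries, with no covariate. DESeq2 1.42.0 and limma 3.58.1 served as alternatives. The 15883 genes that filterByExpr kept (minimum count 10) entered the fit with TMM scaling, and p-values were adjusted over all of them by the Benjamini-Hochberg method. A call required an adjusted p below 0.05 and more than 1 log2 unit of change. A standard error is the log2 fold change over the square root of F. CPM use TMM-scaled totals. The method was tested on simulated data that had no replicate effect and the same spread beyond sampling noise for every gene. That test does not show how the fits behave on libraries that deviate by replicate number, as these did.

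Positions and exon lengths come from Ensembl release 115 (WBcel235), in which 46581 of 46756 identifiers were found. After subtracting group means, libraries with equal numbers correlated over all genes tested at r = 0.282, 0.259 and 0.345. As each was above 0.1, the numbers were taken to pair the libraries. Values with the replicate block are given where they move an adjusted p across 0.05. Replicates differed beyond sampling noise (chi-square per gene 41.55 to 89.6).

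Named members were those past both thresholds, the 6 of smallest p in each direction, the 8 of highest level per length, *ttr-11* and *ttr-33*, and the 2 most variable within each group; others were chosen after their values were seen. The members and gene lists were chosen with earlier results of these data known. Alternatives were other scalings, filters, tests and thresholds, the replicate block, and fits without each single library.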

Additional observations from a re-analysis of the deposited data

How the results depend on the processing

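The family had 0 members called under other scalings (DESeq2 size factors, upper quartile), without or with a stricter filter (minimum count 50), in DESeq2, limma-voom, edgeR without robust shrinkage, a test against a log2 fold change of 1, and with the replicate block. When single libraries were left out the number called lower was 0 to 1, and the 1 was *ttr-12* without low exopher replicate 2. This gene entered that fit only through its counts in the other low exopher libraries. The library left out was the low exopher library with the fewest of its counts, so the call supports nothing. With no minimum fold it was 1, *ttr-25*. On the adjusted p alone, the number lower was 0 with upper quartile scaling, with the stricter filter and in limma-voom, 4 with the replicate block, and 0 to 3 with single libraries left out. The number higher was 1 with the replicate block. For *ttr-25* the adjusted p was 0.0555 with upper quartile scaling, 0.0598 with the stricter filter and 0.0511 in limma-voom, and its log2 fold change was -0.97 to -0.65 with single libraries left out. The median log2 fold change of the members was -0.276 to -0.0205 with single libraries left out. Fold changes that turned sign there ranged from -0.22 to 0.15 for *ttr-6*, -0.29 to 0.0080 for *ttr-16*, -0.34 to 0.037 for *ttr-45*, -0.28 to 0.34 for *ttr-33*, -0.81 to 0.056 for *ttr-31* and -0.56 to 0.35 for *ttr-27*, which was also 0.13 in limma-voom and 0.015 with the replicate block. The cause of these turns was not tested. Of 327 refitted values of 22 named members, 298 kept their direction and side of the threshold. The log2 ratio of the mean summed family level was -0.06 in CPM and -0.07 in CPM per kilobase. Members of a few counts are limited by depth.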

Other observations

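Over the 12 clusters, the highest level per length was 1.43 to 193 times the lowest, with 8.43 as the second largest ratio. In the row *ttr-3*, *ttr-2* and *ttr-1* on chromosome III (9925459 to 9930413), the highest member had 295 CPM per kilobase and the lowest 1.53, a ratio of 193. In the row *ttr-54* and *ttr-53* on chromosome IV the ratio was 8.43, and in *ttr-16* and *ttr-17* it was 5.39. The pair *ttr-36* and *ttr-35* on chromosome X was the closest, at a ratio of 1.43, followed by *ttr-8* and *ttr-32* on chromosome III at 1.93. The row *ttr-11*, *ttr-57* and *ttr-12* on chromosome V (20603314 to 20608788) and the row *ttr-55*, *ttr-56* and *ttr-58* on chromosome I had no tested member, with the highest level of either at 0.255 CPM per kilobase.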
